A study of Mus musculus with 8 samples.

Results

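The genes that encode the mechanotransduction channel of hair cells and the tip link that pulls on it were followed in RNA-seq of mouse utricles at E15.5, embryonic day as labelled. They were 9 genes taken by name, Tmc1, Tmc2, Tmie, Lhfpl5, Cib2, Cib3, Tomt, Pcdh15 and Cdh23, out of 48823 gene identifiers in the count files, and all 9 were found and passed the filter on low counts. The utricle is the gravity-sensing organ of the inner ear, and libraries came from utricles freed from the rest of the ear. The mutants, 4 libraries, carried the Rest allele lacking exon 4 on 1 of their chromosomes (genotype label Rest(+/deltaExon4)), and 4 libraries were wild-type. All are labelled C57BL/6 and E15.5 except wild-type replicate 4, whose labels read C57BL/7 and E15.6. No treatment is named and each library pooled RNA of 7 to 9 mice. The titles call the mutants knockouts, while the genotype label gives 1 deleted exon on 1 allele. Levels are in CPM, the usual scaling of counts by the total read pairs on genes, with library sizes adjusted by edgeR's TMM method.

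Hair cells sense head movement with a bundle of stereocilia, whose tips are joined by tip links. Each link is a filament of cadherin 23 (Cdh23) at its upper end and protocadherin 15 (Pcdh15) at its lower end. Pull on the link opens a channel whose pore is formed by TMC1 and TMC2, held in a complex with TMIE, LHFPL5 and the calcium-binding proteins CIB2 and CIB3. TOMT, a methyltransferase-like membrane protein, is needed for TMC proteins to reach the bundle. In developing hair cells Tmc2 comes on first and Tmc1 follows. REST is a transcriptional repressor of neuronal genes, and inclusion of its alternative exon 4 gives a truncated protein. The comparison asks how gene expression in the utricle differs when exon 4 is missing from 1 allele.

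Rest itself was at 127 ± 3.20 CPM in mutants against 116 ± 7.35 CPM in wild types (SD, n = 4 each), with a log2 change of 0.12 and an adjusted p of 0.456 in the quasi-likelihood test of edgeR (p adjusted by Benjamini-Hochberg). Its groups did not overlap, the mutant libraries being higher. Gene counts do not show exon use, so neither the deletion nor the genotype labels could be checked. Read pairs on genes ranged from 20365225 to 24557189 per library. Reads outside genes made up 11.9% to 18.3% of read pairs in the mutants against 18.4% to 22.2% in wild types, without overlap, and the part of this in any change was not tested.

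Tmc2 and Lhfpl5 fell in the mutant utricles, and none of the 9 genes rose. These 2 of 9 genes passed an adjusted p of 0.05 in edgeR, where 1.02% of the 16990 genes tested were lower and 0.147% higher, 1.17% in either direction. At an unadjusted p of 0.05, 5 of the 9 passed, against 13.4% of all genes and 7.92% lower. With DESeq2 4 of the 9 were called lower, Tmc2, Lhfpl5, Cib3 and Tomt, against 2.43% of all genes. The same 4 genes had groups of libraries that did not overlap, all lower in the mutants, against 4.89% of all genes tested and 7.88% in either direction. The log2 change was negative for 8 of the 9 genes, with a median of -0.50, while over all genes tested it was negative in 50.5% with a median of -0.0027.

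**Figure D1:**
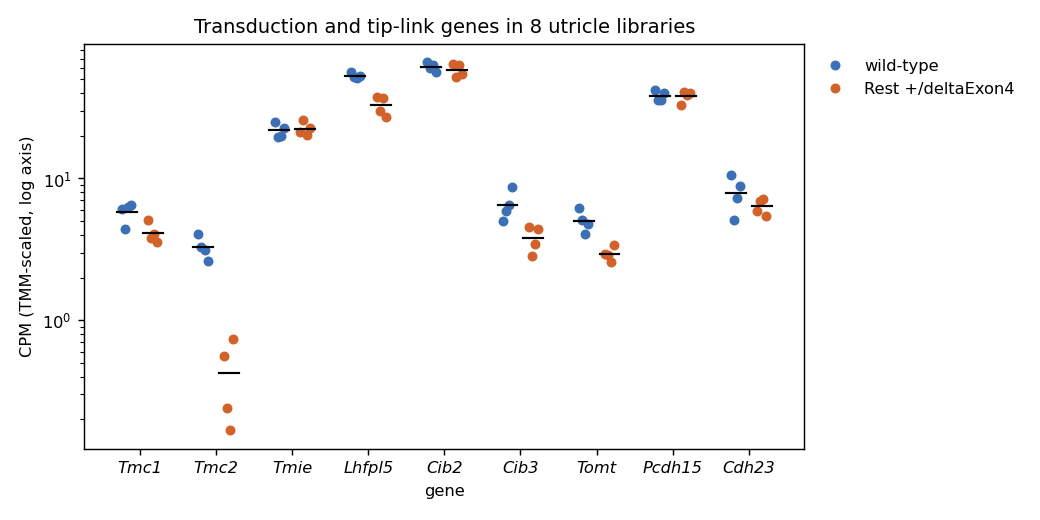
CPM of the 9 genes (log axis) in each wild-type (blue) and Rest(+/deltaExon4) (orange) library, with black lines at the mean of 4 libraries. Tmc2 lies between 2.62 and 4.08 CPM in wild-type and between 0.167 and 0.736 CPM in mutant libraries, while Tmie, Cib2, Pcdh15, Tmc1 and Cdh23 overlap between genotypes.

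Tmc2 (ENSMUSG00000060332, protein coding, chromosome 2, 130195194 to 130264445, plus strand, GRCm38) encodes a pore-forming protein of the channel. In wild-type replicates 1 to 4 it had 96, 71, 77 and 54 read pairs, or 4.08, 3.28, 3.11 and 2.62 CPM. In mutant replicates 1 to 4 it had 13, 5, 4 and 18 read pairs, or 0.557, 0.239, 0.167 and 0.736 CPM. Every mutant library was below every wild-type library.

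Means were 0.425 ± 0.268 CPM in mutants against 3.27 ± 0.608 CPM in wild types (SD, n = 4 each), 87.0% lower in the mutants. The log2 change was -2.92 ± 0.41 (SE) with an adjusted p of 0.00477 by edgeR's quasi-likelihood test. Counting error is large at these read numbers. The exact 95% Poisson interval of the mutant library with 4 read pairs runs from 0.0455 to 0.428 CPM, and that of the pooled 40 mutant read pairs from 0.308 to 0.588 CPM. Both cover counting error only, and both lie below the interval of the pooled 298 wild-type read pairs, 2.93 to 3.69 CPM. The call stood in all 18 alternative fits. In whole utricles, fewer hair cells and less RNA per hair cell cannot be told apart from the level of a hair cell gene alone, and values relative to hair cell transcription factor genes are given further on.

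Tmc1 (ENSMUSG00000024749, chromosome 19, 20783458 to 20954202, minus strand), which encodes the other pore-forming protein, was at 6.12, 4.39, 6.31 and 6.50 CPM in wild-type replicates 1 to 4. In the mutant replicates it was at 5.06, 3.78, 4.05 and 3.56 CPM. The groups overlapped because wild-type replicate 2 lay below mutant replicate 1. The log2 change of Tmc1 was -0.50 ± 0.19 (SE) and did not pass (edgeR adjusted p = 0.303), with a 95% interval, taken from its SE, of -0.88 to -0.13.

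The balance of both pore genes was read within each library, which removes library scaling. There were 1.5, 1.34, 2.03 and 2.48 Tmc1 read pairs per Tmc2 read pair in wild-type replicates 1 to 4. In mutant replicates 1 to 4 the ratio was 9.08, 15.8, 24.3 and 4.83. All mutant libraries were above all wild-type libraries, and the mutant libraries differed widely among themselves. On the log2 scale with 0.5 added to each count, the mean was 3.42 ± 0.95 in mutant and 0.83 ± 0.40 in wild-type libraries (SD, n = 4 each). The difference of 2.59 had an exact two-sided permutation p of 0.0286, the smallest that 70 assignments allow, and 0.0857 after Benjamini-Hochberg adjustment over the 3 ratios computed. Without wild-type replicate 1, 2 or 3 the difference was 2.51, 2.45 or 2.65, each with an exact permutation p of 0.0571. Leaving out any of the other 5 libraries gave differences from 2.25 to 2.98, each with an exact permutation p of 0.0286.

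**Figure D2:**
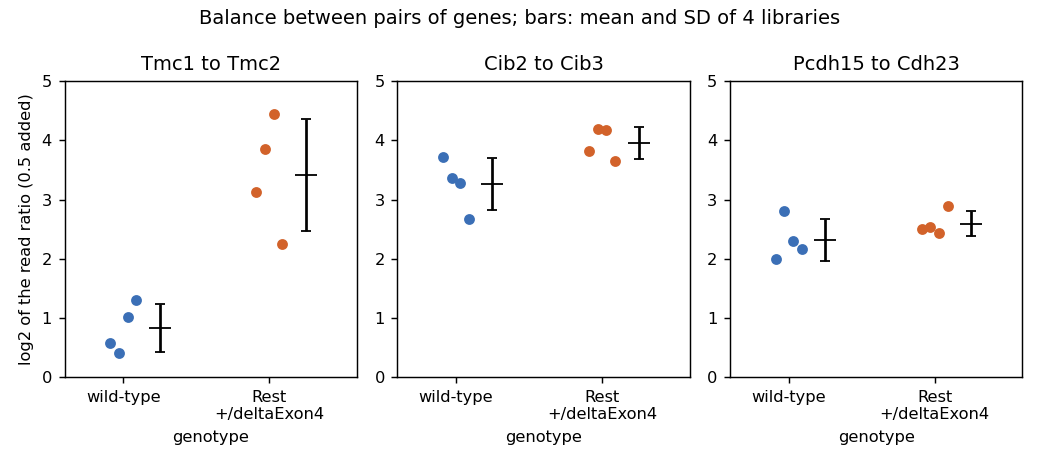
Log2 of the read ratio within each library (points) for Tmc1 to Tmc2, Cib2 to Cib3 and Pcdh15 to Cdh23, with the mean and SD of 4 libraries as black bars beside them. The Tmc1 to Tmc2 ratio is separate between genotypes (means 0.83 and 3.42), while the other pairs overlap.

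Lhfpl5 (ENSMUSG00000062252, chromosome 17, 28575641 to 28585679, plus strand) encodes a membrane protein that couples protocadherin 15 to the TMC proteins. Of the 8 genes with a promoter window in the RefSeq table (GRCm38.p6, 250 bases before to 50 after the start), it alone had a near-complete match to RE1, the element that REST binds. The RE1 consensus, 21 letters of which 18 are fixed, was searched on both strands. The table held no window for Tmc2. The first 201 bases of the Lhfpl5 window are shown because they hold this match, which stands in capitals and lies on the minus strand, at chr17:28575641-28575661 within chr17:28575469-28575669, plus strand.
Lhfpl5 promoter: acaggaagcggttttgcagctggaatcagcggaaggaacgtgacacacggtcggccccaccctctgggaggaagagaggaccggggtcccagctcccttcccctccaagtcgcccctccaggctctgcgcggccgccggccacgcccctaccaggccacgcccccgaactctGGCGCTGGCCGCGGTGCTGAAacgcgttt

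The match begins at the first base of the GENCODE gene and 78 bases before the RefSeq start. The best windows of 3 genes are given in the orientation of the motif, with letters that equal it in capitals, to show how far the others are from it.
Lhfpl5, 1 mismatch: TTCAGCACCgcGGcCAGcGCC
Cib2, 5 mismatches: TgCAGCAgCataGACtGaGCa
Cdh23, 6 mismatches: acgAtCcCCatGGACAGtGgC
Pcdh15 also had 6 mismatches, Tmie and Tomt 7, and Tmc1 and Cib3 8. The only Pcdh15 window, chr10:73821617-73821916, lies inside the GENCODE gene, which starts at 73099342, so sequence at that start was not searched. Sites outside the windows were not searched for any gene. Of all 32851 promoter windows in the table, 0.0152% held a match with at most 1 mismatch, 3.92% with at most 5 and 21.1% with at most 6. A match is a description of the letters and no measurement of binding. Another of the 3 tested genes with at most 1 mismatch is the hair cell transcription factor gene Lhx3, with none, and its log2 change was 0.01 (edgeR adjusted p = 0.993). The remaining gene, Osbp2, had a log2 change of -0.22 (edgeR adjusted p = 0.879). Lhfpl5 was therefore the only one of the 3 that was called. With at most 2 mismatches 2 of 7 tested genes were called lower, and with at most 3 mismatches 4 of 18, and none was called higher. Both counts include the 3 genes above, with Lhfpl5 among the called ones. Of all 11938 tested genes with a window, 119 were called lower and 16 higher. The part of the match in these changes was not tested.

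Lhfpl5 was at 56.3, 51.6, 51.4 and 52.5 CPM in wild-type replicates 1 to 4. In mutant replicates 1 to 4 it was at 37.5, 30.0, 37.1 and 27.0 CPM. The groups did not overlap, and the wild-type libraries lay closer together than the mutant ones. Means were 32.9 ± 5.24 and 52.9 ± 2.26 CPM in mutant and wild-type libraries (SD, n = 4 each), 37.9% lower in the mutants, with a log2 change of -0.69 ± 0.11 (SE) and an edgeR adjusted p of 0.0135. The call ended when libraries were scaled to 4 hair cell transcription factor genes (log2 change -0.65, edgeR adjusted p = 0.359) and when wild-type replicates 3 and 4 were both left out (log2 change -0.71, edgeR adjusted p = 0.0763).

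Tmie (ENSMUSG00000049555, chromosome 9, 110865711 to 110880113, minus strand), a small membrane protein gene of the channel complex, was at 24.9, 19.8, 20.0 and 22.7 CPM in wild-type and 21.1, 26.0, 20.2 and 22.7 CPM in mutant libraries. The groups overlapped throughout. The log2 change was 0.04 ± 0.12 (SE, edgeR adjusted p = 0.911), and the 95% interval ran from -0.19 to 0.27. Of the exonic bases of Tmie 7.89% are shared with Als2cl on the other strand, whose own log2 change was 0.07.

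Cib2 (ENSMUSG00000037493, chromosome 9, 54544794 to 54560218, minus strand), a calcium- and integrin-binding subunit gene of the complex, was at 65.9, 60.5, 63.0 and 56.3 CPM in wild-type and 64.7, 51.9, 62.8 and 54.9 CPM in mutant replicates 1 to 4. Its log2 change was -0.07 ± 0.09 (SE, edgeR adjusted p = 0.784), with a 95% interval from -0.24 to 0.11. As for Tmie, the groups overlapped. Of its exonic bases 15.8% are shared with Sh2d7 on the other strand, which averaged 1.0 read pairs in mutant and 1.5 in wild-type libraries.

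Cib3 (ENSMUSG00000074240, chromosome 8, 72204335 to 72212837, minus strand), a close relative of Cib2 that serves vestibular hair cells, was at 4.97, 5.87, 6.47 and 8.78 CPM in wild-type replicates 1 to 4. In mutant replicates 1 to 4 it was at 4.54, 2.82, 3.47 and 4.38 CPM. The groups did not overlap, by a gap of 4.54 to 4.97 CPM. Its log2 change was -0.77 ± 0.23 (SE), which did not pass in edgeR (adjusted p = 0.175) and passed in DESeq2 (adjusted p = 0.0451). The Cib2 to Cib3 read ratio was 13.3, 10.3, 9.73 and 6.41 in wild-type and 14.2, 18.4, 18.1 and 12.6 in mutant replicates 1 to 4. These overlapped, since wild-type replicate 1 lay above mutant replicate 4. The log2 ratio differed by 0.70 (exact two-sided permutation p = 0.0571, 0.0857 adjusted over the 3 ratios), and without wild-type replicate 1 by 0.85 (exact permutation p = 0.0286). Leaving out any other library gave differences from 0.50 to 0.80 with exact permutation p-values from 0.0571 to 0.0857.

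Tomt (ENSMUSG00000078630, chromosome 7, 101898370 to 101906359, minus strand) was at 6.17, 5.13, 4.08 and 4.80 CPM in wild-type and 2.92, 2.87, 2.59 and 3.40 CPM in mutant replicates 1 to 4. The groups did not overlap, and the mean was 41.7% lower in the mutants. Its log2 change of -0.78 ± 0.19 (SE) did not pass in edgeR (adjusted p = 0.1) and passed in DESeq2 (adjusted p = 0.0164). Tomt lies against Anapc15, a subunit gene of the anaphase-promoting complex on the other strand, which shares 69.3% of its exonic bases. Reads there cannot be told apart without strand and were left uncounted, so the values rest on the other 876 bases. Lamtor1, which also overlaps Tomt, shares no exonic base with it, and neither does Vsir, which lies within Cdh23. Anapc15 was at 7.54 ± 0.778 and 8.49 ± 0.958 CPM (SD, n = 4 each), a log2 change of -0.17 (edgeR adjusted p = 0.636).

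Pcdh15 (ENSMUSG00000052613, chromosome 10, 73099342 to 74649737, plus strand), the lower part of the tip link, was at 42.1, 35.8, 35.9 and 39.9 CPM in wild-type and 33.2, 40.6, 38.6 and 40.4 CPM in mutant replicates 1 to 4. The ranges lay over each other. The log2 change was -0.01 ± 0.10 (SE, edgeR adjusted p = 0.98), with a 95% interval from -0.20 to 0.18. Gene counts do not separate the isoforms of Pcdh15.

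Cdh23 (ENSMUSG00000012819, chromosome 10, 60302748 to 60696490, minus strand), the upper part of the link, was at 10.6, 5.08, 7.24 and 8.87 CPM in wild-type and 5.87, 6.98, 7.14 and 5.40 CPM in mutant replicates 1 to 4. Wild-type replicate 2 was the lowest of the 8 libraries and wild-type replicate 1 the highest. The log2 change of -0.32 ± 0.22 (SE) did not pass (edgeR adjusted p = 0.55), and without wild-type replicate 1 it was -0.14 (edgeR adjusted p = 0.85). The Pcdh15 to Cdh23 log2 ratio was 2.59 ± 0.21 in mutant and 2.32 ± 0.35 in wild-type libraries (SD, n = 4 each), with p = 0.257 in the exact permutation test, two-sided, before and after adjustment over the 3 ratios. The difference of 0.27 was 0.44 without wild-type replicate 2 (exact permutation p = 0.0286), 0.16 without wild-type replicate 1 (exact permutation p = 0.486) and 0.17 without mutant replicate 4 (exact permutation p = 0.457). Leaving out any of the other 5 libraries gave exact permutation p-values from 0.229 to 0.343.

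**Figure D3:**
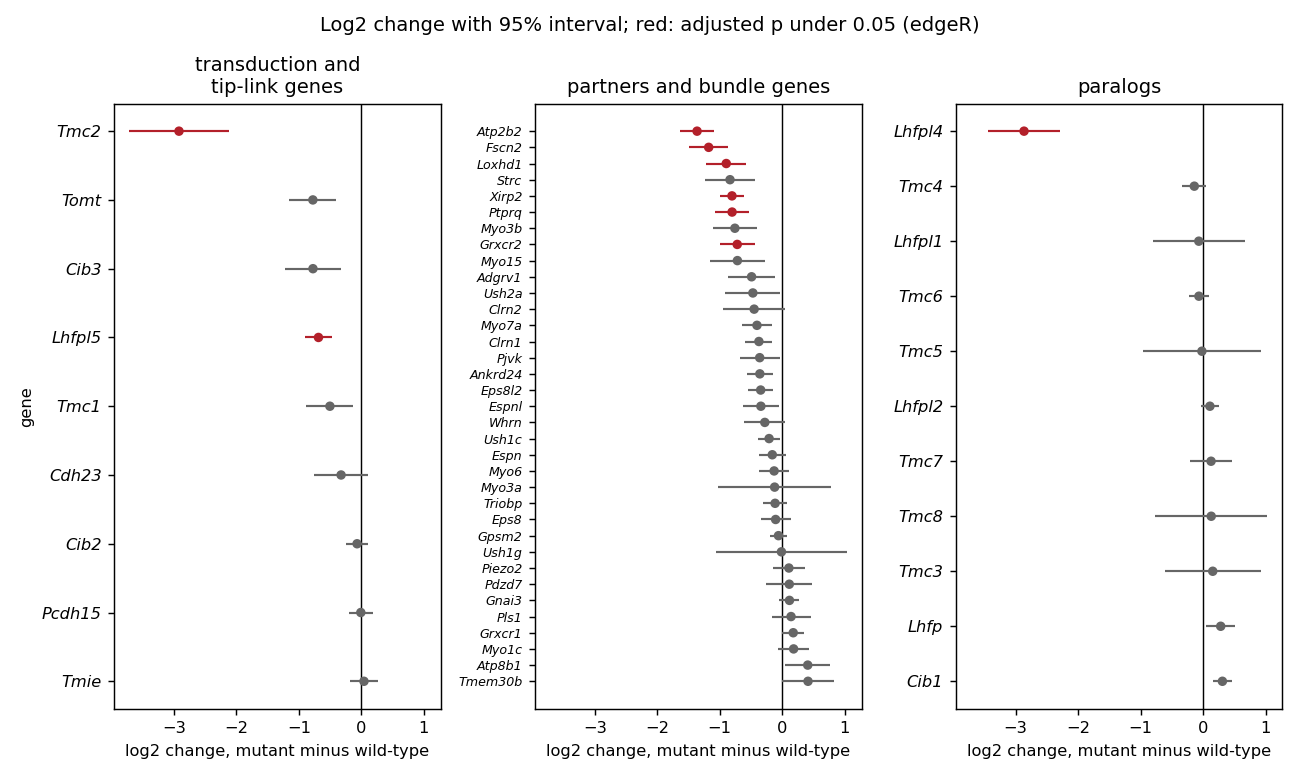
Log2 change between Rest(+/deltaExon4) and wild-type utricles (points) with 95% intervals from the SE (lines) for the 9 genes, 35 partner and bundle genes and 11 paralogs; red marks an edgeR adjusted p under 0.05. Tmc2 at -2.92 and Lhfpl4, a paralog of Lhfpl5, at -2.87 lie apart from the other genes drawn.

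The members were compared with each other in RPKM, the CPM divided by the annotated exonic length in kilobases. Cib2 was the most abundant in wild-type utricles at 42.9 ± 2.85 RPKM, followed by Lhfpl5 at 22.2 ± 0.945, Tmie at 7.07 ± 0.789 and Cib3 at 3.24 ± 0.806 RPKM (SD, n = 4 each). Tomt followed at 1.77 ± 0.303 RPKM over all its exonic bases, which is too low because reads on its shared bases were left uncounted. Next came Pcdh15 at 1.62 ± 0.132, Tmc2 at 1.02 ± 0.189, Tmc1 at 0.811 ± 0.135 and Cdh23 at 0.469 ± 0.139 RPKM. The ranges of neighbours in this order overlapped between Tomt and Pcdh15, Tmc2 and Tmc1, and Tmc1 and Cdh23. The ranges of the pore genes in wild-type utricles thus overlapped. Over the longest transcript they overlapped too, with Tmc1 at 1.43 and Tmc2 at 1.02 RPKM on average. Their order per length within each library was not compared.

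In mutant utricles Tmc2 was the lowest of the 9 at 0.132 ± 0.0834 RPKM (SD, n = 4), below Cdh23 at 0.375 ± 0.0499 and Tmc1 at 0.572 ± 0.0922 RPKM. No mutant library of Tmc2 reached the range of Cdh23. Over its unshared bases, the ones on which its reads were counted, Tomt was at 5.76 RPKM in wild-type and 3.36 in mutant libraries. On that length it held the fourth level in both. Over the longest transcript Pcdh15 was at 4.22 and 4.20 RPKM, since its annotated exons add up to 23773 bases against 9104 in that transcript. The places of Tomt, Pcdh15, Cib3, Tmc1 and Tmc2 in the order therefore depend on the length used.

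**Figure D4:**
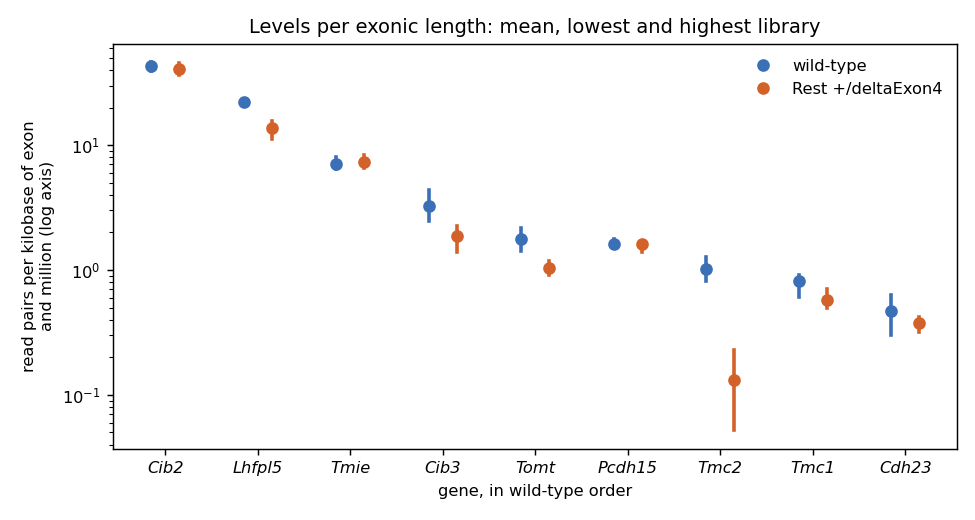
RPKM (log axis) for each gene in wild-type order, with the mean as a point and the lowest to highest of 4 libraries as a line. Tomt is drawn over all its exonic bases, which places it too low. In wild-type libraries Tmc2 (1.02) stands beside Tmc1 (0.811), and in mutant libraries (0.132) below every other gene drawn.

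The hair cells that carry these genes were followed by their transcription factors. Pou4f3, which maintains hair cells, was at 111 ± 9.78 CPM in mutants against 116 ± 11.5 CPM in wild types, and Lhx3 at 23.5 ± 6.18 and 23.3 ± 2.82 CPM. Gfi1 was at 12.4 ± 3.13 and 16.6 ± 4.91 CPM, Barhl1 at 3.24 ± 0.944 and 2.64 ± 0.443 CPM, and Atoh1, which starts hair cell differentiation, at 60.4 ± 16.1 and 38.3 ± 10.4 CPM (SD, n = 4 each). None passed in edgeR, with adjusted p from 0.238 for Atoh1 to 0.993 for Lhx3, and 2 of the 5 had a negative log2 change.

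The geometric mean of Pou4f3, Gfi1, Lhx3 and Barhl1 was 17.9 ± 3.98 CPM in mutants against 18.5 ± 2.96 CPM in wild types (SD, n = 4 each), with p = 0.771 in the exact permutation test, two-sided. In this mean Gfi1 and Barhl1 went opposite ways, with log2 changes of -0.42 and 0.29, and Lhx3 holds the complete RE1 match given above. Whether the Rest genotype acts on these reference genes was not tested. Atoh1, with a log2 change of 0.65, was left out of this mean, and a mean that includes it was not computed. Divided by the mean without Atoh1, Tmc2 was 85.4% lower in the mutants, Lhfpl5 36.1% and Tmc1 25.7% lower, and the groups did not overlap for these 3 genes. For Cib3 (36.6% lower) and Tomt (37.9% lower) they did overlap on this scale. In CPM the groups of Tmc1 overlapped. The share of all genes whose groups do not overlap was not computed on this scale, so the separation of Tmc1 has no background to be set against. In the fit scaled to these factors the call of Tmc2 was kept, with a log2 change of -2.82 (edgeR adjusted p = 1.43e-05). The median log2 change over all genes was 0.075 on that scale.

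Of 16 hair cell marker genes 3 fell, Otof, Acbd7 and Chrna10, and none rose (median log2 change -0.12), where 1.02% of all genes tested were lower. The 16 include the transcription factors above, and Myo6 and Myo7a, which are also among the partner and bundle genes. The summed level of the 16 was 1020 to 1191 CPM in mutants against 1133 to 1281 CPM in wild types. None was at 0. The most abundant, Myo6, was at 319 ± 59.5 and 349 ± 32.7 CPM. Of 10 ganglion neuron genes 2 fell, Nefm and Nefl, and the sum was 364 to 428 CPM in mutants against 555 to 768 CPM in wild types. Nefm was the most abundant of the 10, so the sum rests in part on a called gene. The other 8 did not pass, and 6 of the 10 had a negative log2 change. The part of the hair cell and ganglion neuron markers in the changes above was not tested.

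No gene of the supporting, Schwann, mesenchyme, melanocyte, dark or blood cell lists passed. Sums of supporting cell genes ranged from 3188 to 3936 CPM in mutants against 3185 to 4022 CPM in wild types, led by Sox9. Led by Fabp7 and Col2a1, Schwann cell sums were 621 to 764 and 563 to 638 CPM and mesenchyme sums 813 to 1105 and 700.2 to 873 CPM. Melanocyte (Mitf) and dark cell (Slc12a2) sums overlapped between genotypes. Blood genes summed to 313 to 458 CPM in mutants against 299 to 3612 CPM in wild types, and Hbb-bs, a haemoglobin gene, was at 2142 CPM in wild-type replicate 4 and 153 to 249 CPM in the other 7 libraries. Without wild-type replicate 4 the log2 change of Tmc2 was -3.01 (edgeR adjusted p = 0.0114) and that of Lhfpl5 -0.69 (edgeR adjusted p = 0.0391). Of the cochlear list, Slc26a5, the motor protein gene of cochlear outer hair cells, had no read pairs in 7 libraries and 2 in wild-type replicate 3, while Ikzf2 was at 98.1 and 88.4 CPM on average in mutant and wild-type libraries. Slc26a5 comes on later in development, so its level is no check of the organ.

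Among paralogs of the 9 genes, 1 of 11 tested fell and none rose (median log2 change 0.11), where 1.02% of all genes tested were lower. Lhfpl4, which encodes a relative of LHFPL5 that serves inhibitory synapses, was at 7.06, 4.90, 10.4 and 6.55 CPM in wild-type and 0.729, 1.34, 1.09 and 0.818 CPM in mutant replicates 1 to 4. The groups were far apart, and the log2 change was -2.87 ± 0.29 (SE, edgeR adjusted p = 0.000735). Its promoter window had 7 mismatches to RE1. The other LHFPL genes moved less: Lhfp, Lhfpl1 and Lhfpl2 had log2 changes of 0.28, -0.07 and 0.11 (edgeR adjusted p = 0.336, 0.958 and 0.56).

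The remaining TMC genes, which are not part of the channel, lay between -0.14 for Tmc4 and 0.15 for Tmc3, with Tmc5, Tmc6, Tmc7 and Tmc8 at -0.02, -0.07, 0.13 and 0.13 on the log2 scale (edgeR adjusted p from 0.559 to 0.993). Cib1, the widely expressed relative of Cib2, was at 91.1 ± 1.90 CPM in mutants against 73.5 ± 7.41 CPM in wild types (SD, n = 4 each). Its groups did not overlap, and its log2 change of 0.31 ± 0.08 (SE) did not pass in edgeR (adjusted p = 0.113) but did in DESeq2 (adjusted p = 0.0187). Lhfpl3 and Cib4 had at most 7 and 2 read pairs in any library and were not tested.

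Of 35 tested partners of the complex and other bundle genes 6 fell and none rose, where 1.02% of all genes tested were lower. The median log2 change of the 35 was -0.34, with 27 negative values. Atp2b2, the calcium pump of the bundle, was at 47.7, 38.2, 43.7 and 46.6 CPM in wild-type and 19.4, 19.9, 12.9 and 16.4 CPM in mutant replicates 1 to 4. The actin crosslinker gene Fscn2 was at 16.2, 13.6, 14.2 and 16.6 CPM in wild-type and 7.63, 5.88, 7.97 and 5.28 CPM in mutant libraries. Neither gene overlapped between genotypes, and their log2 changes were -1.36 ± 0.14 and -1.18 ± 0.16 (SE, edgeR adjusted p = 0.000775 and 0.00392).

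Xirp2, an actin-binding protein gene of stereocilia, had a log2 change of -0.80 ± 0.10 (SE, edgeR adjusted p = 0.00211). Ptprq, whose product is a shaft connector of the bundle, changed by -0.80, Loxhd1, needed for transduction in mature hair cells, by -0.90, and Grxcr2, a protein gene of the stereocilia base, by -0.72 (edgeR adjusted p = 0.0187, 0.0228 and 0.0365). The latter 3 calls stood in 8, 8 and 5 of the 18 alternative fits against 18 for Atp2b2 and Fscn2 and 17 for Xirp2. Leaving out mutant replicate 1 or 4, or wild-type replicate 1, 3 or 4, gave 3 called partners in place of 6. The most abundant of the list, Pls1 and Myo6, had log2 changes of 0.14 and -0.13 (edgeR adjusted p = 0.738 and 0.685). Myo7a and Ush1c, which anchor the upper end of the tip link with Ush1g, had log2 changes of -0.40 and -0.21 (edgeR adjusted p = 0.199 and 0.357).

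The correlation of each gene's deviations from its genotype mean with those of the other 8 ranged from 0.000079 for Lhfpl5 to 0.45 for Tmc1 over 8 libraries. The closest pair was Lhfpl5 and Cib2 (r = 0.79), followed by Tmie and Pcdh15 (r = 0.76). Genes whose deviations were most like the mean of the 9, out of all genes tested, were Pcgf5, Vps13c, Oscp1, BC064078 and Oas1b (r from 0.95 to 0.97). Of the hair cell transcription factor genes, Pou4f3 had r = 0.52, while Gfi1, Lhx3, Atoh1 and Barhl1 had r of 0.082, 0.086, 0.097 and 0.106. Given 8 libraries and 16990 genes, these are a description with no test.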

How the data were processed

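The authors deposited read-pair counts per gene for each of 8 libraries, not normalized. Per the submitters' processing notes, STAR 2.5.2a, GRCm38.p4 and DESeq2 were used; the annotation release is not given in the sources used here. Strand columns had near-equal totals, so the unstranded count was used. Read pairs on lines that name no gene, 25.2% to 33.9%, were left out. The authors also deposited a signal table of counts divided by size factors for 7 libraries, without wild-type replicate 4. It gave the gene symbols, and 100% of its values became whole reads (tolerance 0.001).

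Genotypes were compared with edgeR 4.0.16 (R 4.3.3) by the quasi-likelihood test on genotype alone, after filterByExpr (minimum count 10, minimum total 15) and TMM scaling, with Benjamini-Hochberg adjustment over 16990 genes and a threshold of 0.05. The SE is the log2 change divided by the square root of F, and intervals are normal (95%). DESeq2 1.42.0 and other scalings, filters and libraries were alternatives. GENCODE M21 (GRCm38) gave positions and exonic lengths; promoters are RefSeq's. The fit was tested on simulated data. Labels do not say whether pools came from separate litters, so p-values measure the spread between these libraries.

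The 9 genes and the lists were chosen with earlier results of these data known. Of the paralog list 1 gene is left out of all counts and is not reported here. The text names the 9 genes, Rest, tested paralogs, the hair cell factors, up to 6 called partners by adjusted p and the 2 most abundant, the leading gene of each marker list, genes overlapping the 9, and the 5 genes most like them. Other names, among them Myo7a, Ush1c, Otof, Acbd7, Chrna10, Nefl, Slc26a5 and Osbp2, were chosen after their values were seen.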

Additional observations from a re-analysis of the deposited data

Results flagged for a closer look

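Among 70 groups of 4 libraries checked for a library far from the other 3, 2 stood out, and chance alone gives about 1 in 20. Tmc6 was at 50.7 CPM in wild-type replicate 3 and between 42.9 and 44.1 CPM in the other wild-type libraries. Rest was at 132 CPM in mutant replicate 1 and between 125 and 126 CPM in the other mutant libraries.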

How the results depend on the processing

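Tmc2 kept its call in all 18 alternative fits (log2 change -3.32 to -2.65) and Lhfpl5 in 16. Of all genes 173 were lower and 25 higher: DESeq2 gave 411 and 153, the fit to the 7 libraries in the deposited normalized values 107 lower, leaving out 1 library 105 to 140 lower and 12 to 28 higher, and leaving out wild-type replicates 3 and 4, chosen after seeing the data, 71 lower. Of the 9 genes 2 were lower, 4 with DESeq2 (Cib3 at -0.77 and Tomt at -0.77 joining), and 1 with hair cell factor scaling (Lhfpl5 -0.65) or without wild-type replicates 3 and 4 (Lhfpl5 -0.71). Of the partners 6 were lower, 2 with hair cell factor scaling, 3 with the 7 libraries or without wild-type replicates 3 and 4, and 3 to 5 leaving out 1 library. DESeq2 called 1 paralog higher.

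With the replicate block 80 genes were lower and 16 higher, 3 of them partners lower. Tmc2 was at -3.02, Lhfpl5 at -0.70 and Lhx3 at -0.021, and the Tmc1 to Tmc2 difference of 2.59 had an exact sign-flip p of 0.125, the smallest possible. Correlations of same-numbered libraries were 0.02, -0.10, 0.03 and -0.09, so no pairing by number showed in their expression. This cannot tell whether same-numbered pools were collected or prepared together.

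Small changes turned sign. Without scaling factors Tmie was at -0.0038 and Lhx3 at -0.037. With hair cell factor scaling Pcdh15 was at 0.091, Tmc5 at 0.10, Tmc6 at 0.021 and Pou4f3 at 0.0021. Without a filter Pcdh15 was at 0.014 and Tmc5 at 0.0015, and with the stricter filter Lhx3 at -0.00089. With the 7 libraries Pcdh15 was at 0.025 and Tmc5 at 0.17, and without wild-type replicates 3 and 4 Tmc6 was at 0.0076. Leaving out 1 library gave ranges of -0.020 to 0.12 for Tmie, -0.040 to 0.054 for Pcdh15, -0.071 to 0.41 for Tmc3, -0.30 to 0.18 for Tmc5, -0.27 to 0.38 for Tmc8, -0.47 to 0.10 for Lhfpl1 and -0.14 to 0.17 for Lhx3. The log2 ratio differences ranged from 2.25 to 2.98 for Tmc1 to Tmc2, 0.50 to 0.85 for Cib2 to Cib3 and 0.16 to 0.44 for Pcdh15 to Cdh23. The cause of these shifts was not tested. Low read numbers limit Tmc2, with 4 to 18 read pairs in mutant libraries.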
